A study of Mus musculus with 2 samples.

Results

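The collagen genes of the mouse were examined in 2 DNase-seq libraries of urinary bladder. They were taken as every protein-coding gene of the GENCODE M21 annotation whose symbol is Col, a number, the letter a and a number, which gave 44 of 21938 protein-coding genes: 11 that code for fibrillar chains, 6 for the type IV chains of basement membranes and 27 for other types. Both libraries belong to 1 group, whole bladder of male B6CASTF1/J mice at an age of 36 days, for which the labels name no treatment, named replicate 1 and replicate 2 after the labels. The labels number the animals separately but give both the same donor record, so the spread between libraries is all that was measured. These mice are F1 hybrids of C57BL/6J and CAST/EiJ, while the authors' alignments are to mm10, which represents C57BL/6J.

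Collagens are secreted proteins built from chains that wind around each other into a rigid helix. The fibrillar types form the tensile cables of connective tissue, type IV forms the sheet-like network of basement membranes, and the remaining types decorate fibrils, form beaded filaments or span the cell membrane. In the bladder wall, fibroblasts and smooth muscle cells are known to deposit fibrillar collagen as the wall grows and stretches, and the urothelium, vessels, nerves and muscle cells each rest on or are wrapped in type IV collagen. DNase I cuts DNA where chromatin is accessible, and an accessible site at a transcription start is a common feature of genes in use, although it does not measure transcription.

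A start peak is an accessible site, as the authors called it, that overlaps the 500 bases on either side of any annotated start of a gene. Each library came with a shorter and a longer peak list, and the shorter one, in which every peak held a site at an FDR of at most 0.001, was used unless the longer one is named. That list held 38674 peaks in replicate 1 and 47661 in replicate 2, with 140919 and 167442 footprints, which are short stretches inside accessible chromatin that DNase I cut less than their surroundings. Peak heights came in whole steps of 0.0113 in replicate 1 and 0.00893 in replicate 2, and the read depth behind them is unknown. Because the tissue was taken whole, fewer cells with an open site and a less open site in each cell cannot be told apart. Start peaks in both libraries were held by 11 of 13 urothelial markers, 4 of 9 smooth muscle markers, 2 of 8 fibroblast markers and 2 of 5 endothelial markers. Schwann cell markers gave 2 of 4, and markers of cartilage, taken as another tissue, 3 of 6, beside 56.3% of all protein-coding genes. Acta2, Actg2, Tagln, Cnn1 and Des of the muscle list and Dcn, Lum, Dpt, Twist2, Tcf21 and Mfap5 of the fibroblast list had none in either library. Of these, Acta2, Des, Dcn, Dpt and Twist2 had one in both libraries of the longer list. That list gave 13 urothelial, 6 smooth muscle and 5 fibroblast markers, the other counts unchanged, beside 61.4% of all genes. The part of this cell mixture in the collagen results was not tested.

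Sequences of collagen starts with and without a peak over them are shown first, since the values that follow refer to them. They are RefSeq promoter sequences of the build GRCm38.p6, which shares coordinates with mm10, read 5′ to 3′ on the strand of the gene, limited to bases before the start that lie in no annotated untranslated region. Capitals mark bases that lay inside a footprint of both libraries. The first 4 had a peak in both libraries.
Col16a1 (chr4:130047590-130047839, plus strand): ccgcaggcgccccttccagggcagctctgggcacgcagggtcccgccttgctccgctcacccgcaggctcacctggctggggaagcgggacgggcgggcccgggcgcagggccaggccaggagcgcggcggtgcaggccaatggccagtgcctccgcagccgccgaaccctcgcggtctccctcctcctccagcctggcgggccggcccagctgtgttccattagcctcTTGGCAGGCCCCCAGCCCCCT
Col27a1 (chr4:63215162-63215411, plus strand): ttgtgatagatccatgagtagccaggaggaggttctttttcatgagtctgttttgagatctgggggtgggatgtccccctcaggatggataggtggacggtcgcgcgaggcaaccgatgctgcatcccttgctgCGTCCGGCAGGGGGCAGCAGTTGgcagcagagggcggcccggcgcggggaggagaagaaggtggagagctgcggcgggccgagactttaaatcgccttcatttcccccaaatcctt
Col5a1 (chr2:27886175-27886424, plus strand): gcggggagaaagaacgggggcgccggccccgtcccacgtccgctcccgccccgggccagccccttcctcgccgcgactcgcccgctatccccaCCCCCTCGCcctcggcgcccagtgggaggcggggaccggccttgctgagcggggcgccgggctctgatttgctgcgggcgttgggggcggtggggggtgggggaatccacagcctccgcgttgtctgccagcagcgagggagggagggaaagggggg
Col4a5 (chrX:141475169-141475384, plus strand): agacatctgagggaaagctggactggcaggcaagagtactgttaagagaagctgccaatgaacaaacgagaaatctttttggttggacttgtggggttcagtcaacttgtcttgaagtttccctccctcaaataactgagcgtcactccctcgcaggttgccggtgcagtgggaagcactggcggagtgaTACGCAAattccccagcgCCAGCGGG
The next 3 had no peak of the shorter list over the printed bases in either library. In the longer list, a peak overlapped the printed bases of Col4a4 in both libraries and those of Col8a2 in replicate 1. Past its printed bases, Col3a1 had a start peak in replicate 2. Col4a4 shares its start region with Col4a3, Col3a1 holds no CpG in its RefSeq promoter, and Col8a2 is rich in CpG.
Col4a4 (chr1:82586850-82586975, minus strand): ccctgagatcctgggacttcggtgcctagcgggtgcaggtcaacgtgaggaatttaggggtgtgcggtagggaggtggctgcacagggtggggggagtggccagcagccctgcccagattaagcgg
Col3a1 (chr1:45311288-45311537, plus strand): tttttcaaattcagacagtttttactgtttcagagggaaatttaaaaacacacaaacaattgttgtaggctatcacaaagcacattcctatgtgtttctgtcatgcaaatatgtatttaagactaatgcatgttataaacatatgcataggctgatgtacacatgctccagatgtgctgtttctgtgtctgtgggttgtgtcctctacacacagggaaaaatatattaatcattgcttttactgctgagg
Col8a2 (chr4:126286544-126286792, plus strand): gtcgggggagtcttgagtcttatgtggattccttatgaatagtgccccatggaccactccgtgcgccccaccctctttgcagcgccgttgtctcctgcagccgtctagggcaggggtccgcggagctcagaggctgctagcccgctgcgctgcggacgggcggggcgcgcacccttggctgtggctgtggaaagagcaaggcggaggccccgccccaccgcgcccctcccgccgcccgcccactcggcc

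Few collagen genes had an accessible start. Replicate 1 showed a start peak for 16 of the 44 genes, where 57.8% of all protein-coding genes had one, and replicate 2 for 18, against 58.6%. In both libraries it was 15 genes, or 34.1%, against 56.3% of all protein-coding genes. Most of the family, 25 genes, had one in neither library, and Col3a1, Col5a3, Col14a1 and Col4a6 had one in a single library. In the longer list the count rose to 23 genes, or 52.3%, against 61.4%. With only the outermost start of each gene counted it was 10 genes, or 22.7%, against 50.9%. Long genes had start peaks more often than short ones, and the collagen genes were long, with a median of 114 kb against 17.4 kb. Among genes of at least 100 kb, both libraries gave a start peak to 12 of 26 collagens, or 46.2%, beside 71.4% of 2492 genes, and among shorter genes 3 of 18 collagens, or 16.7%, beside 54.3%.

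**Figure D1:**
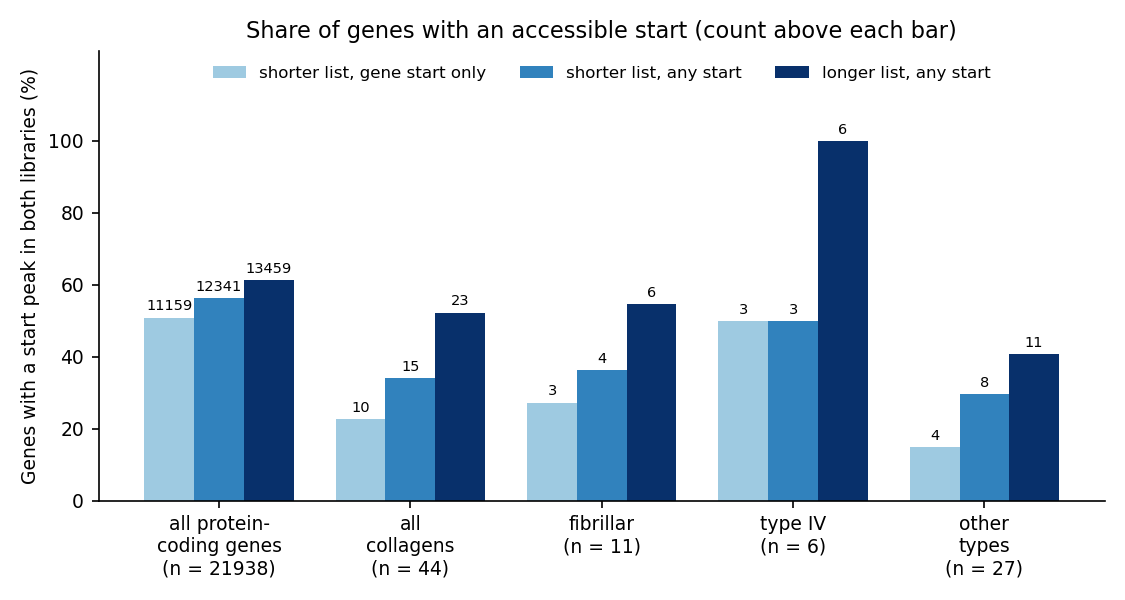
Bars show the percentage of genes with a start peak in both libraries for all protein-coding genes, all collagens and 3 classes, with the number of genes above each bar and the number in the class below. The collagen bar for any start in the shorter list stands at 34.1% beside 56.3% for all genes, and the type IV bar reaches all 6 genes in the longer list.

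The collagen start peaks were also low. Among the 15 genes with one in both libraries, the rank of the highest start peak, taken over every start peak in the same library, had a median of the 34.9th percentile, from 10.7 to 68.7, where all protein-coding genes with both had a median of 70.1. Over the 16 collagens with a start peak in replicate 1 the median of the strongest heights was 1.24, and over the 18 in replicate 2 it was 1.29, beside 2.94 and 2.81 for all genes. Only Col6a2 and Col1a1 stood above the median start peak of both libraries, which was 2.00 in replicate 1 and 1.78 in replicate 2, and 10 of the 15 stood below it in both. All 15 had their peaks at an overlapping site in the 2 libraries. Each held at least 1 footprint in a start peak in both libraries, so that 15 of 44 collagens did, where 54.8% of all genes did. Over the 16 and the 18 collagens called in each library the median was 3 footprints per gene, beside 5 for all genes with a start peak.

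**Figure D2:**
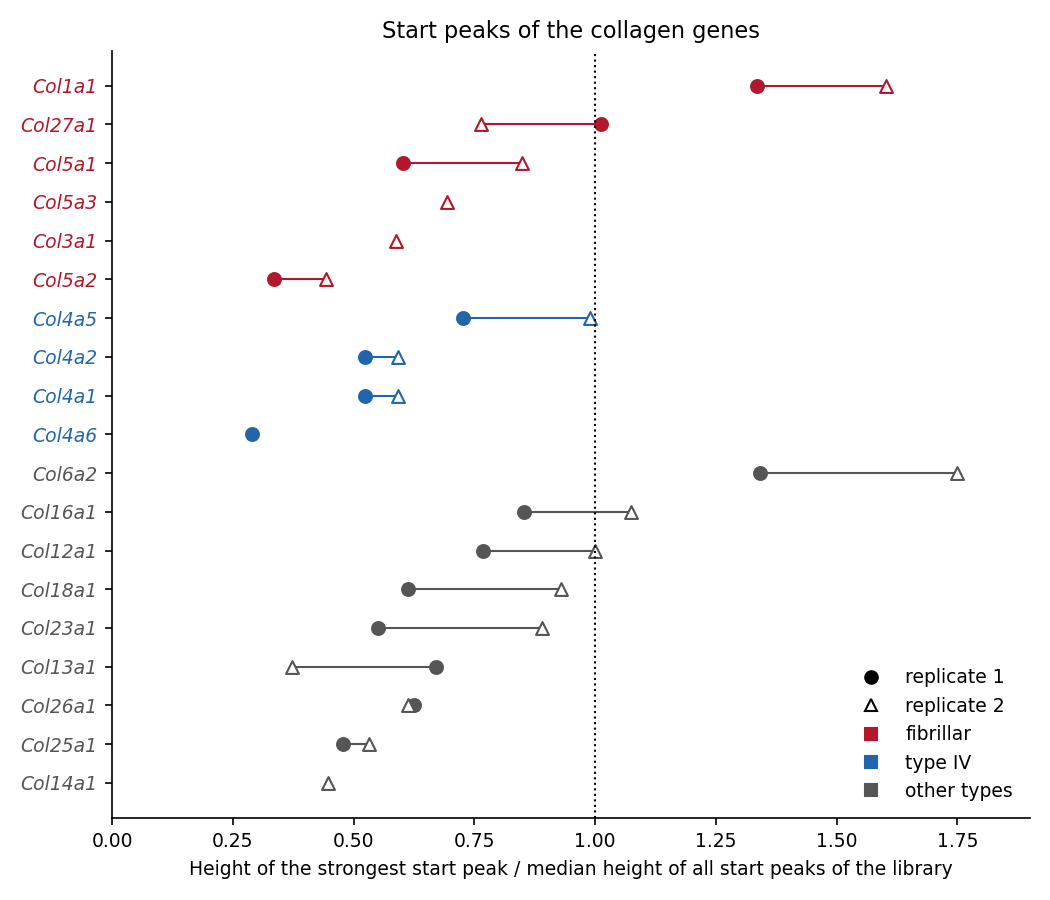
Each row is a collagen gene with a start peak in at least 1 library, and the axis gives the height of its strongest start peak divided by the median height of all start peaks of that library, with a dotted line at 1. Filled circles are replicate 1, open triangles replicate 2, and a gene with 1 symbol had a start peak in that library alone; Col1a1 and Col6a2 lie to the right of the line in both.

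The fibrillar class had 4 of its 11 genes with a start peak in each library, namely Col1a1, Col27a1, Col5a1 and Col5a2. Col1a1, which codes for the main chain of type I collagen, had the highest, at 2.66 in replicate 1 and 2.85 in replicate 2, the 66.7th percentile ± 4.43 (SD, n = 2). That peak lay inside intron 1, at chr11:94937081-94937280 in replicate 1, about 0.956 kb past the gene start and within 500 bases of an annotated internal start. At the gene start itself the peak was lower, at 1.72 and 1.50, and another stood in intron 6 at 1.80 and 1.68. Both libraries thus placed the strongest site of Col1a1 in the intron and in the same order of heights with the other sites below it.

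Col1a2, which codes for the partner chain of type I collagen, had no start peak in either library of the shorter list. The longer list held one in replicate 2, at 0.920, and none in replicate 1. The nearest shared sites lay far upstream, at 47.0 kb with heights of 0.828 and 1.07, and at 47.7 kb with 0.578 and 0.625. The genes for the chains of this protein therefore differed in their start calls in both libraries.

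Col3a1, the type III chain that accompanies type I in distensible organs, had a start peak in replicate 2 alone, at 1.04. The longer list held one there in both libraries, at 0.794 in replicate 1 and 1.04 in replicate 2. No distal peak within 50 kb of the gene was shared. Its printed promoter lay outside the peak of replicate 2, which began past the start, at chr1:45311598-45311648.

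The type V and XI chains, which nucleate fibrils and set their width, were split. Col5a1 had 1.20 in replicate 1 and 1.51 in replicate 2 (34.9th percentile ± 12.2, SD, n = 2), but the strongest peak lay 482 bases past the start in replicate 1 and 146 bases before it in replicate 2. The site before the start was shared, at 1.01 and 1.51. Col5a2 had the lowest start peak of the 15 by mean percentile, with 0.669 and 0.786 (10.7th percentile ± 7.96, SD, n = 2), although Col13a1 was lower in replicate 2. Col5a3 had a start peak of 1.23 in replicate 2 alone, and in the longer list 0.896 and 1.23. Col11a1 and Col11a2 had none in the shorter list, nor had Col2a1, the cartilage collagen, or Col24a1. Col27a1, a minor fibrillar chain, had 2.02 and 1.36 (45.0th percentile ± 7.82, SD, n = 2), and it was among the 3 of the 15 genes that were lower relative to the median start peak in replicate 2 than in replicate 1.

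The start used for Col27a1 differs between annotations. The peak lay 1.32 kb past the outermost GENCODE start in replicate 1, and it covered the RefSeq start, so the gene has no peak at its GENCODE gene start and a peak at its RefSeq promoter. In the printed sequence its shared footprint is a run of 23 bases. Col25a1, a transmembrane collagen of neurons, was alike in this respect, with a peak of 0.952 and 0.946 at 49.3 kb past the outermost GENCODE start in replicate 1 that covered the RefSeq start.

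Type IV genes lie in divergent pairs, in which a minus-strand and a plus-strand gene start close together and run apart. Head-to-head pairs were searched for among all protein-coding genes, and those whose gene starts lay within 1000 bases numbered 1200, of which 92.1% had a peak in both libraries. Only 2 of these pairs held a collagen gene, Col4a1 with Col4a2 and Col4a4 with Col4a3, and in each both genes were collagens. The remaining type IV pair, Col4a6 with Col4a5, had starts 1309 bases apart and so fell outside this limit. The windows of paired genes overlap, so paired genes are not independent members.

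The Col4a1 and Col4a2 pair, which codes for the type IV chains found in nearly all basement membranes, had an accessible start in both libraries. The transcripts overlap by 22 bases on chr8, with the start of Col4a1 at 11312826 and that of Col4a2 at 11312805. The peak was 1.04 in replicate 1 and 1.05 in replicate 2 (24.2nd percentile ± 6.32, SD, n = 2), at chr8:11312501-11313027 and chr8:11312501-11312800. Of the 2 collagen pairs within 1000 bases, this was the 1 with a peak in both libraries. The peak covered both starts in replicate 1 and ended 5 bases before the Col4a2 start in replicate 2. Further low peaks stood on the Col4a2 upstream side in both libraries. The promoter consists mostly of untranslated bases of the pair, so only footprints of at most 30 bases are shown, as the union of the overlapping footprints of both libraries, all capitals.
Col4a2 footprint (chr8:11312599-11312613, plus strand): TGGTGGCGCGCCCGG
Col4a2 footprint (chr8:11312782-11312799, plus strand): TGGCGCTGCCCCCTCCCC
Col4a5 footprint (chrX:141475351-141475366, plus strand): CGGAGTGATACGCAAA
Col4a5 footprint (chrX:141475371-141475398, plus strand): CCAGCGCCAGCGGGGAGGGGGCGGTGCA
The second and the last of these footprints share an 11-base run, GGGGAGGGGGC, which the Col4a2 strand holds as its reverse complement. On either strand, 3 of 38 collagen promoters held this run, those of Col4a1, Col4a2 and Col4a5, beside 1.16% of 20150 promoters of protein-coding genes. The promoters of Col4a1 and Col4a2 overlap and share a single site. The run was chosen after these footprints were seen, as the longest one common to those of Col4a2 and Col4a5. These 3 promoters therefore held it by the way it was chosen, and no other collagen promoter did.

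The other pairs were not alike. Col4a3 and Col4a4, chains known from the basement membranes of kidney, lung and inner ear, start 72 bases apart and had no start peak in the shorter list of either library. The longer list held low peaks there, with a highest height of 0.533 in replicate 1 and 0.429 in replicate 2. Col4a5, whose chain is known in kidney and in smooth muscle basement membrane, had a start peak of 1.45 and 1.76 (42.6th percentile ± 10.2, SD, n = 2). Col4a6, its neighbour, had one of 0.578 in replicate 1 alone, and in the longer list 0.624 and 0.446. All 6 type IV genes thus had a start peak in both libraries of the longer list, 3 of them in the shorter one.

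**Figure D3:**
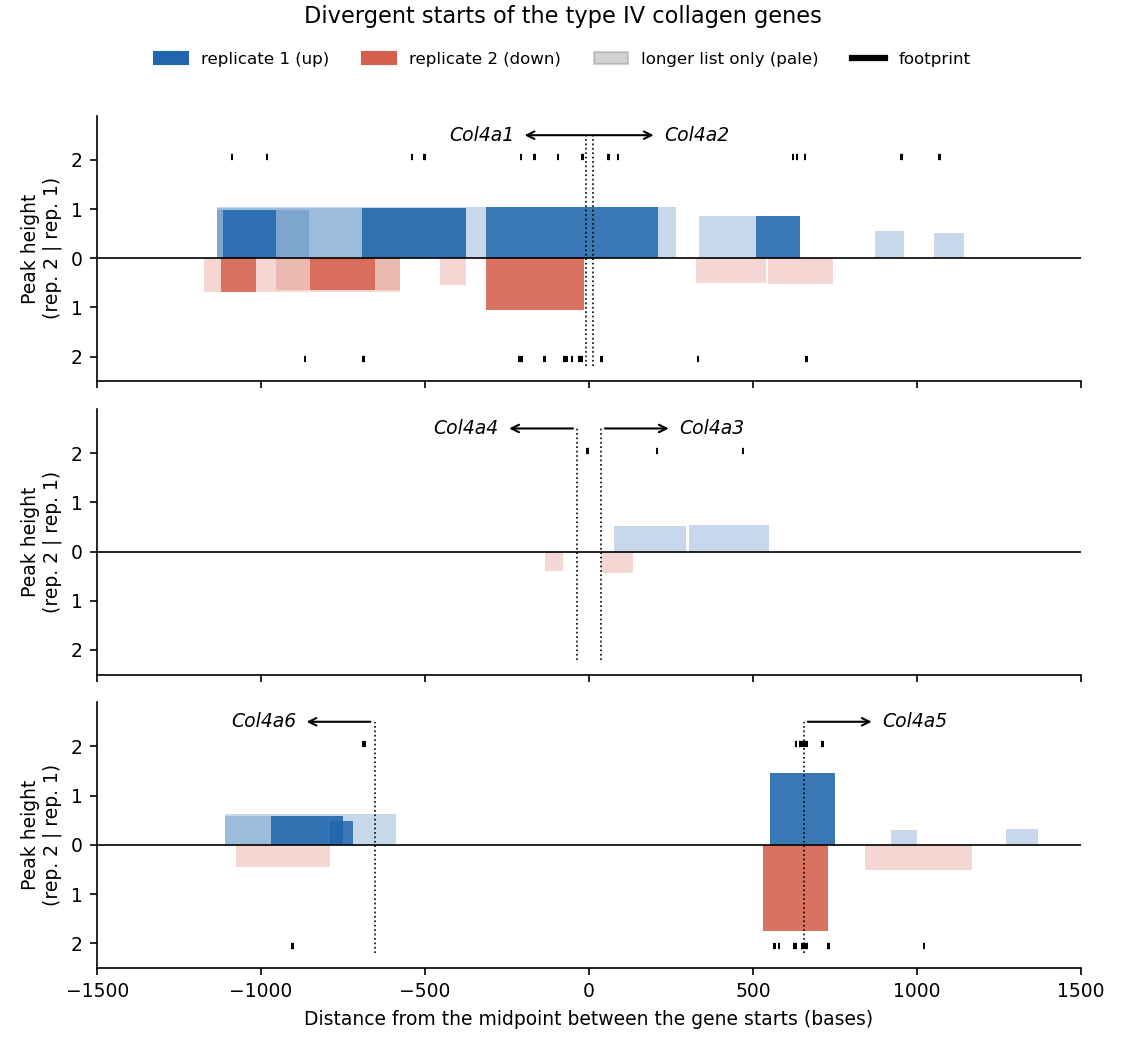
For each type IV pair, peaks are drawn at their width and height against distance in bases from the midpoint between the gene starts, replicate 1 upward and replicate 2 downward, with peaks of the longer list in pale colour, footprints as black ticks and arrows at the starts. The Col4a1 and Col4a2 starts lie under a peak of 1.04 in replicate 1 and just beside one of 1.05 in replicate 2, and the Col4a5 start lies under peaks of 1.45 and 1.76, while the Col4a4 and Col4a3 starts show only pale peaks.

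Among the 27 other types, 8 had a start peak in both libraries, or 29.6%, beside 56.3% of all protein-coding genes. The beaded-filament group, taken as the type VI genes and Col28a1, was not uniform. Col6a2 had the highest start peak of all collagens, at 2.68 in replicate 1 and 3.11 in replicate 2 (68.7th percentile ± 6.96, SD, n = 2), at chr10:76623341-76623560 in both libraries. A footprint of both libraries lay 110 bases before its inner RefSeq start, 76623404, at chr10:76623514-76623540 on the minus strand. It lay past the outer RefSeq start, 76623630, which is also the GENCODE gene start and whose RefSeq promoter had no peak in either library.
Col6a2 footprint (chr10:76623514-76623540, minus strand): CTTTCCTCCCCTCCCCCAGCTCATTCC
Col6a1, which lies beside Col6a2 on chr10, had no start peak in either peak list. Shared peaks stood upstream of it instead, at 2.39 kb with 1.79 and 1.48, at 7.31 kb with 1.37 and 1.45, and at 9.04 kb with 2.04 and 1.71. Col6a3, a further chain of the main type VI protein, had a start peak in the longer list only, at 0.680 and 0.571. Col6a4, Col6a5, Col6a6 and Col28a1 had none in both libraries of either list. The group thus had 1 of 7 genes with a start peak in both libraries.

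Of the 9 fibril-associated genes, whose products sit on the surface of fibrils, 2 had a start peak in both libraries. Col16a1 had 1.70 and 1.91 (47.8th percentile ± 7.44, SD, n = 2), over its start and over the 21 footprint bases that end its printed sequence. Col12a1 had 1.53 and 1.78 (44.0th percentile ± 8.69, SD, n = 2). Col14a1 had start peaks in replicate 2 alone, of which the highest was 0.795, while a shared peak of 2.68 in replicate 1 and 2.18 in replicate 2 lay 1.27 kb upstream, outside the window. Col19a1 gained a start peak in the longer list, at 0.283 and 0.366, and Col9a1, Col9a2, Col9a3, Col20a1 and Col22a1 had none in both libraries of either list.

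The transmembrane collagens had start peaks in both libraries for 3 of 4 genes, and all 3 were low. Col23a1 had 1.10 and 1.58 at its gene start (33.8th percentile ± 16.4, SD, n = 2). Col13a1 had 1.34 and 0.661 (20.8th percentile ± 14.9, SD, n = 2), in intron 18 beside an internal start 101 kb from the gene start, and a shared peak of 3.24 and 3.08 lay 1.51 kb upstream of the gene start, outside the window. Col17a1, the hemidesmosome collagen of basal epithelial cells, had none. Col18a1, the multiplexin that carries endostatin, had start peaks at internal starts in introns 2 and 3. They stood at 1.21 in replicate 1 and 1.65 in replicate 2 in intron 2, and at 1.22 and 1.23 in intron 3. The longer list also held a peak over its gene start, at 0.964 and 0.759. Col15a1, the other multiplexin, had none in the shorter list. Col26a1 had 1.25 and 1.09 in intron 5 (29.0th percentile ± 1.37, SD, n = 2). The short-chain network genes Col8a1, Col8a2 and Col10a1 and the anchoring-fibril gene Col7a1 had no start peak in the shorter list, and Col8a1 had 0.590 and 0.420 in the longer one.

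Some of these calls rested on internal starts, since 10 of the 15 remained with only the outermost start counted. Col1a1 was among the 10, although its strongest peak lay at an internal start. In 6 of the 15 genes with both, or Col1a1, Col13a1, Col18a1, Col25a1, Col26a1 and Col27a1, the strongest start peak of each library lay away from the outermost start, where 12.3% of all genes with both had this. The collagen genes had a median of 4 annotated starts beside 3 for all genes. Calls in a single library were few. Replicate 2 alone had a start peak for Col3a1, Col5a3 and Col14a1, beside 2.32% of all genes, and replicate 1 alone for Col4a6, beside 1.58%. Of the 25 collagens with no start peak in either library, 16 had a site with a listed FDR at a start in at least 1 library, and the other 9 of the 44 genes had none, where 34% of all genes had none.

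The promoters differed in CpG content. RefSeq promoters, 250 bases before to 50 after the start, were matched by symbol for 35 of the 44 genes, with 38 promoters. A peak overlapped 9 of these in both libraries, or 23.7%, beside 49.2% of 20150 promoters of all protein-coding genes. The 9 held a median of 24 CpG dinucleotides, from 11 to 37, and the other collagen promoters a median of 8, where all promoters with and without a peak had medians of 23 and 4. In the bin of 10 to 19 CpG, 3 of 13 collagen promoters had a peak in both libraries, or 23.1%, beside 68.1% of all promoters, and with at least 20 CpG 6 of 9 did, or 66.7%, beside 83.6%. None of the 8 collagen promoters with 0 to 4 CpG had one, beside 2.45% of all promoters, and none of the 8 with 5 to 9 CpG, beside 20.2%, so these low counts are near the general share. The CpG-rich promoters with no peak in both libraries were those of Col8a2, Col13a1 and Col5a3.

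**Figure D4:**
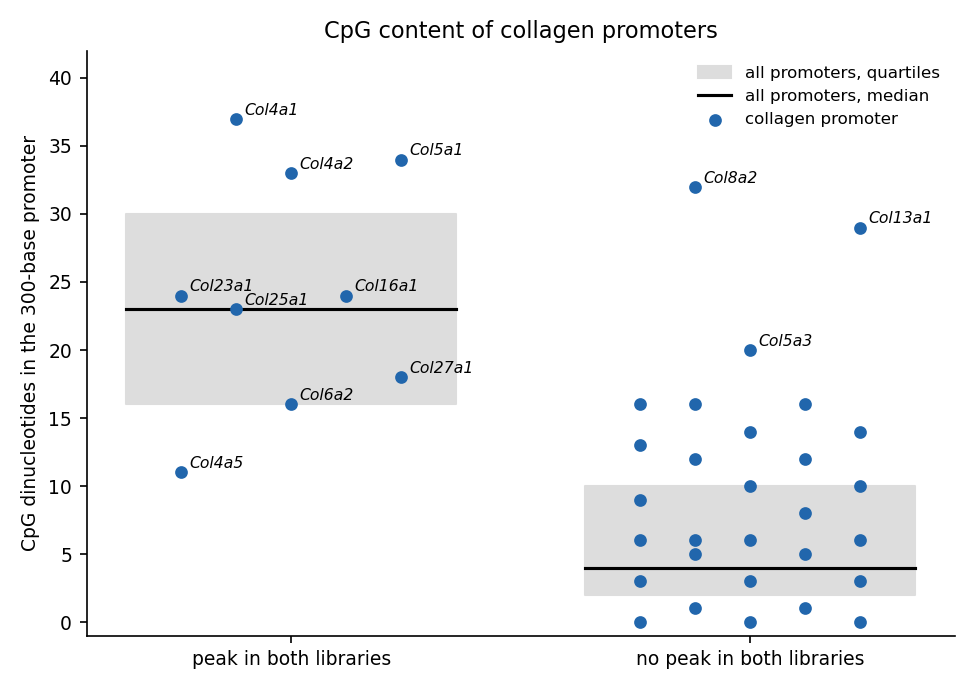
Points are collagen promoters, placed by whether a peak overlapped the 300-base promoter in both libraries and by their count of CpG dinucleotides, beside the quartiles (grey) and median (line) of all promoters; the sideways spread has no meaning. Collagen promoters with a peak hold 11 to 37 CpG, and Col8a2, Col13a1 and Col5a3 are high without one.

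Short motifs were searched on both strands in the same promoters. The letters of a GC box, GGGCGG, were found in each of the 9 collagen promoters with a peak in both libraries, where 72.2% of all promoters with such a peak held them. Over every collagen promoter the share was 60.5%, and over every promoter 47.8%. These letters contain a CpG, so their share moves with CpG content. The box of the nuclear factor Y family, CCAAT, was present in 34.2% of the collagen promoters, beside 37.8%. The core of a classical TATA box, TATAAA, was present in 13.2% beside 12.1%, and in none of the 9 promoters with a peak, where 5.15% of all promoters with a peak held it.

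The other motifs are given with their share of all promoters, and nothing particular to the collagens is read from them. The E-box letters CANNTG occurred in 52.6% of the collagen promoters and 68.7% of all promoters. The letters of an AP-1 site, TGANTCA, occurred in 2.63%, which is 1 of 38 promoters, and 7.0%. The Smad-type letters CAGACA, which are associated with the pathway of transforming growth factor beta, occurred in 23.7% and 18.4%. The TEAD-type letters GGAATG occurred in 13.2% beside 13.4%, and the SRF CArG box likewise in 1 of 38, or 2.63%, beside 1.51%. A match says only that the letters are in the window.

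Away from starts the collagen genes as a whole had about as many accessible sites per length as other genes. Among genes under 100 kb the collagens had more. A distal peak was one that overlaps no window of 500 bases around any annotated start of any gene. Within the gene and 50 kb on each side, 31 of 44 collagens, or 70.5%, had at least 1 distal peak shared by both libraries, beside 64.5% of all protein-coding genes. The median was 2 shared distal peaks per collagen gene beside 1 for all genes, and per 100 kb of window it was 0.835 beside 0.852. The collagen windows were long, and among genes of at least 100 kb the share was 65.4% of 26 collagens beside 77.9% of all genes, with medians of 1 and 2. Among shorter genes it was 77.8% of 18 collagens beside 62.8%, with medians of 2 and 1. Per 100 kb of window, the medians were 1.49 and 0.878 among these shorter genes, and 0.486 and 0.485 among the longer ones. With peaks at starts counted too, the median over all 44 collagens was 2 shared peaks beside 4, or 1.42 per 100 kb beside 2.62. Of the 25 collagens with no start peak, 19 had a shared distal peak. The same share was not taken over all genes with no start peak, so nothing particular to the collagens is read from it. These windows are not exclusive: those of Col4a1 and Col4a2, of Col3a1 and Col5a2, and of Col6a1 and Col6a2 overlap, among others, and a window can hold sites of other genes.

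Replicate 2 held more of these distal sites. The collagen windows held 96 distinct distal peaks in replicate 1 and 158 in replicate 2, 1.65 times as many, where the whole lists held 19086 and 27329, 1.43 times as many. Counts were higher in replicate 2 for 75% of the collagen genes and lower for 2.27%, beside 42.9% and 10.6% of all protein-coding genes. For the rest they were equal. These shares were not matched for window length, of which the median was 2.14 for collagens beside 1.17, in units of 100 kb. Of the 96, 92 overlapped a peak of replicate 2. The depth of the libraries is unknown, and its part in these counts was not tested.

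The genes with the most shared peaks of any kind in their windows were Col23a1 with 11, Col4a2 and Col26a1 with 10 each, Col15a1 with 9, and Col16a1, Col18a1 and Col8a2 with 8 each. Col23a1 owed 6 of its 11 to starts, its own and those of neighbouring genes, which left 5 distal ones. Its strongest distal site lay in intron 5, 250 kb past the start, at 4.01 in replicate 1 and 3.54 in replicate 2. Col26a1 had 7 distal ones, and the strongest, in intron 3, was 3.53 in replicate 1 and 1.95 in replicate 2. Col4a2 had 6 distal ones, 1 upstream, 2 in intron 4, 1 in a coding exon and 2 downstream.

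Col15a1 had the most distal sites of all, 8, although it had no start peak. Its intronic sites lay in introns 2, 5, 6, 28 and 39. The highest in replicate 1 was in intron 5, 43.0 kb past the start, with 1.94 and 1.69, and the highest in replicate 2 was the first of a pair in intron 28, 85.8 kb past the start, with 1.22 and 2.07. Col18a1 had 5, led by a site in intron 2 at chr10:77130661-77130860, 35.8 kb past the start, with 4.24 and 4.74. That site stood at the 94.4th percentile ± 2.31 (SD, n = 2) of all peaks, above the start peaks of the gene in both libraries. Col16a1 also had 5, and its strongest, in intron 55, was 4.51 in replicate 1 and 3.47 in replicate 2. Col8a2 had 3, of which the strongest, in intron 3, was 3.65 and 2.38.

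**Figure D5:**
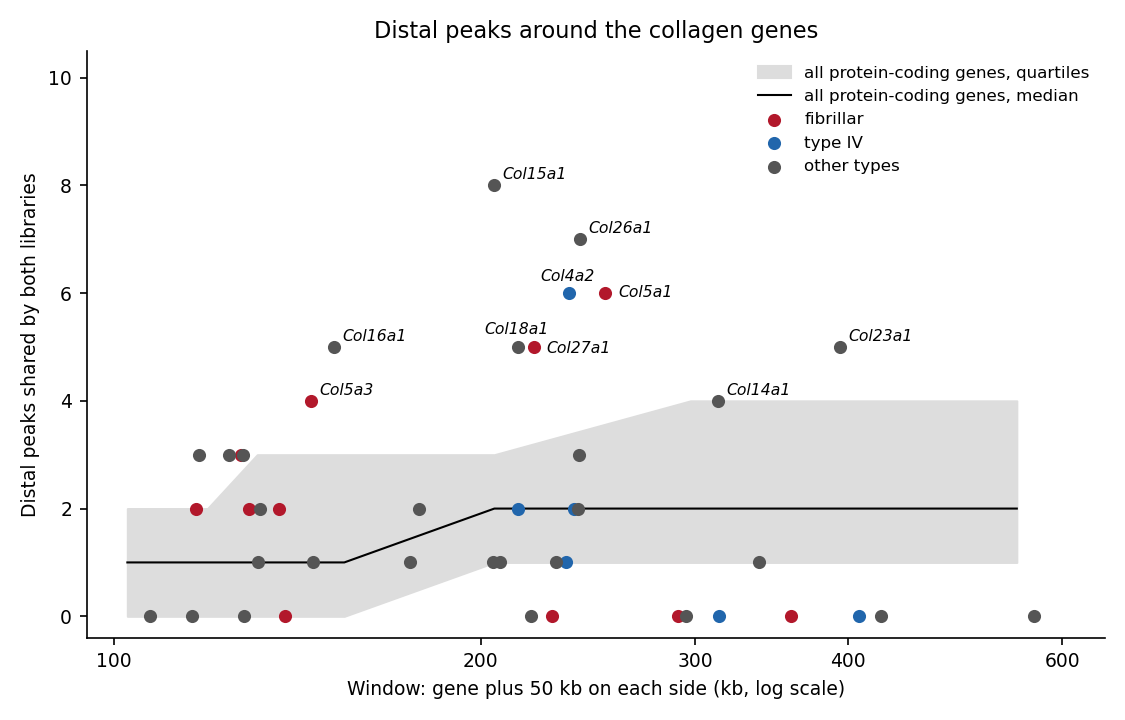
Each point is a collagen gene, placed by the length of its window (gene plus 50 kb on each side, log scale) and by the number of distal peaks shared by both libraries, with the quartiles and median of all protein-coding genes in 8 bins of window length. Col15a1 with 8 and Col26a1 with 7 stand highest, and 13 collagens lie at 0.

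The strongest distal sites were chosen after their values were seen. By mean rank over both libraries, the highest shared one in any collagen window lay at chr11:94979041-94979200, 42.9 kb from the Col1a1 start and beyond its end, with 4.43 in replicate 1 and 4.93 in replicate 2, the 95.2nd percentile ± 1.84 (SD, n = 2) of all peaks. A lower shared site stood 7.21 kb upstream of Col1a1, at 1.67 and 1.64. Col5a3, with a start peak in replicate 2 alone, had a site 16.1 kb upstream at 4.16 and 3.55. In Col5a1 the strongest was in intron 4, at 2.58 and 2.38. Which gene each of these sites acts on was not measured.

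The genes that make, fold, process and bind collagen were given by a list of 43. A start peak in both libraries was found for 27 of them, or 62.8%, beside 34.1% of the collagen genes and 56.3% of all genes; replicate 1 had 27 and replicate 2 had 33. Split by role after the values were seen, 16 of 19 genes for folding, modification and secretion had one, 8 of 13 for propeptide processing and crosslinking, 0 of 5 for fibril partners, 0 of 3 for degradation and 3 of 3 receptors. The highest ranks were those of P4hb, a subunit of prolyl 4-hydroxylase, with the 97.8th percentile ± 0.713 (SD, n = 2), Sec23a, a coat protein of the vesicles that carry procollagen, with 95.3 ± 5.11, and P3h1, a prolyl 3-hydroxylase, with 94.6 ± 2.31. Ppib, P4ha1, Colgalt1, Mia3 and Plod3 followed, between 91.0 and 78.3. P4hb stood at 6.25 and 6.02, above the start peak of any collagen gene in both libraries. Many of these enzymes also serve other secreted proteins.

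Genes of the list with no start peak in either library were P4ha3, Fkbp10, Adamts14, Loxl2, Dcn, Lum, Fmod, Bgn, Mmp2 and Ctsk. Dcn, Lum, Fmod and Bgn code for small proteoglycans that bind collagen fibrils. The collagen crosslinking enzymes Lox and Loxl1 had start peaks in replicate 2 alone, at 0.563 and 1.23, as had Sparc, a collagen-binding matrix protein, at 1.41. With the shorter peak list, the 43 genes together thus stood at 62.8%, beside 56.3% of all genes, and the collagens stood lower, at 34.1%. The larger share among the folding, modification and secretion genes rests on the split made after the values were seen. With the longer peak list, the 43 genes gave 33, or 76.7%, and the folding, modification and secretion genes 17 of 19. The collagens then gave 23 of 44, or 52.3%, beside 61.4% of all genes.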

How the data were processed

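DNase-seq of mouse urinary bladder gave 2 libraries of 1 group, so no comparison between conditions was possible. Per the labels, the authors made each library's lists on mm10; no source used here names the aligner or the callers. Peak heights are a signal value that the authors deposited, in whole steps per library, with no stated scale and unknown depth. The deposited per-site FDR is a p-value adjusted by the authors, and footprints carry the constant 0.01. The FDR limits of the peak lists, 0.001 and 0.05, were read from the values, and the first does not by itself define the shorter list. Longer-list peaks that overlap no shorter-list peak held FDRs down to 9.45e-07 in replicate 1 and 7.05e-09 in replicate 2. At starts with no shorter-list peak, Col5a3 reached 0.000638 in replicate 1. In replicate 2, Col6a3 reached 0.000781 and Col19a1 0.000898.

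Peaks were joined to GENCODE M21 (GRCm38) in Python 3.11.15 with pandas 2.3.3 and numpy 2.4.6. A shared peak is a replicate 1 peak that overlaps a replicate 2 peak by at least 1 base. Overlapping peaks of a list were counted singly. Members are counted beside all protein-coding genes, which are not replicates, so no p-value is given. The overlap code was tested on simulated intervals. Members and lists were chosen with earlier results of these data known. Values are given for members with a start peak in both libraries, in divergent pairs, with the 5 highest counts of shared peaks (ties kept) or with calls that differ between libraries or lists, and for 8 biosynthesis genes. Alternatives were the longer list, higher peaks, other windows and starts, and each library alone.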

Additional observations from a re-analysis of the deposited data

How the results depend on the processing

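Of 92 alternative values, 68 stayed within the set limits (1.5 times for a count, the spread of the libraries for a median) and 24 moved; the causes were not tested. With the longer list, collagens with a start peak in both libraries numbered 23, type IV genes 6, and divergent pairs with a peak 2. The median shared peaks per gene were then 5, as for all genes, but 2.25 per 100 kb beside 3.80 for all genes. With the higher 50% of peaks, the same values in this order were 5, 0, 0, 1 and 0.730, the medians beside 2 and 1.51 for all genes. The counts were then 5 for footprints, 2 for fibrillar genes and 3 for other types. The median start percentile was 21, beside 62.5 for all genes. Biosynthesis genes numbered 17 of 43, beside 47.6% of all genes. They thus fell below the share of all genes, above which they stood in the main setting. With the gene start only, 4 other types remained counted. Divergent starts within 2000 bases, chosen after seeing the data, gave 2 pairs with a peak. Windows of 10 and 100 kb gave medians of 1 and 5 shared peaks, beside 1 and 6 for all genes, and peaks away from any start 0.835 per 100 kb. Each library alone gave medians of 3 to 4 peaks, 1.57 to 2.34 per 100 kb and a percentile of 27.5 to 37.4. The share of the 44 collagens with a start peak was below that of all genes under each setting run. Other choices of starts give no value of their own for divergent pairs, which use gene starts. No paired analysis was possible because there is 1 group. Unknown depth limits what an absent low peak means.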
